A study of Mus musculus with 96 samples.

Results

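The 24 horizontal basal cells (HBCs) of highest RNA content were compared with the 24 of lowest RNA content, out of 96 single cells collected as the 2 daughters of 48 divisions. The RNA content of a cell was the number of reads counted on mouse genes divided by the number counted on ERCC transcripts, a mix of synthetic RNAs added in the same amount to each lysate. The cells were chosen by these measured counts, so that the difference in RNA content is a description of the choice and was not tested. The lowest of the high cells had a content of 39.48 and the next cell below it 39.34, while the highest of the low cells had 25.45 and the next cell above it 25.56. All 96 cells belong to 1 group in the labels, and neither the mouse nor the culture of a cell is named. Cells are not replicates, and no p-values are given: every difference below describes these 48 cells.

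HBCs are the reserve stem cells of the olfactory epithelium (OE). They lie quiet on the basement membrane, hold a keratin network built on Krt5 and Krt14, and depend on the transcription factor p63, encoded by Trp63. After injury they enter the cell cycle, take on wound-response keratins and give rise to the other cells of the OE. The amount of RNA in a cell is known to go with its size and its growth, and when all transcripts scale together the share of each in the total stays constant. A share that differs between large and small transcriptomes therefore marks the transcripts that do not scale with the rest.

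The cells came from wild type mice of 6 to 8 weeks. The OE was taken 2 days after an injection of methimazole, a toxicant that kills most OE cells and spares HBCs, and the HBCs taken from it were kept in culture on matrix-coated dishes. Both daughters of a division were picked by mouth pipette, and the polyadenylated RNA of each was made into a library by G&T-seq. The labels give the same genotype, injury and culture protocol for all of the cells, and the spike-in is the control for RNA amount. Checked against markers of HBCs, Trp63, Krt5 and Krt14 had 10 or more reads in all 24 high and all 24 low cells. Of 30 markers of other OE, immune, stromal and blood cells, 28 had a median of 0 reads in both groups, 7 had no read in any cell and 4 (Gap43, Il33, Ascl3 and Cd68) reached 10 reads in at least 3 cells of either group. A single low cell stood apart, with HBC markers summing to 1317 CPM against 3935 to 19172 CPM in the other 23 low cells and squamous genes summing to 65810 CPM against at most 13623 CPM, and values without it are given beside the results it touches.

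The RNA content spanned 16.4 to 93.4 gene reads per ERCC read, a 5.70-fold range. The high cells had between 39.5 and 93.4 with a median of 44.7, and the low cells between 16.4 and 25.5 with a median of 21.0. The fold between the group medians was 2.13, and the mean difference on the log2 scale was 1.095. The numbers of gene reads overlapped, with 32380582 to 43576313 in the high cells and 30042988 to 40236161 in the low cells. ERCC transcripts took between 1.06% and 2.47% of all counted reads in the high cells and between 3.78% and 5.75% in the low cells, and so did not overlap. Over the 96 cells, log2 content correlated with log2 ERCC reads at r = -0.96 and with log2 gene reads at r = 0.25, both of which share their terms with the content.

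The error of the content was taken from the spike-in itself. When the ERCC transcripts were split by alternate ranks of abundance, the contents from both parts correlated at r = 0.96 over 96 cells, and their log2 difference had an SD of 0.12, against an SD of log2 content of 0.44 over the cells. With 1 part alone, 21 of the 24 high cells and 23 of the 24 low cells were picked again, and with the other part 21 and 22. The 4 most abundant ERCC transcripts held 79.2% of ERCC reads. Unequal pipetting of the spike-in would shift all ERCC transcripts of a cell alike, is not seen by this split, and its part in the content was not tested.

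**Figure D1:**
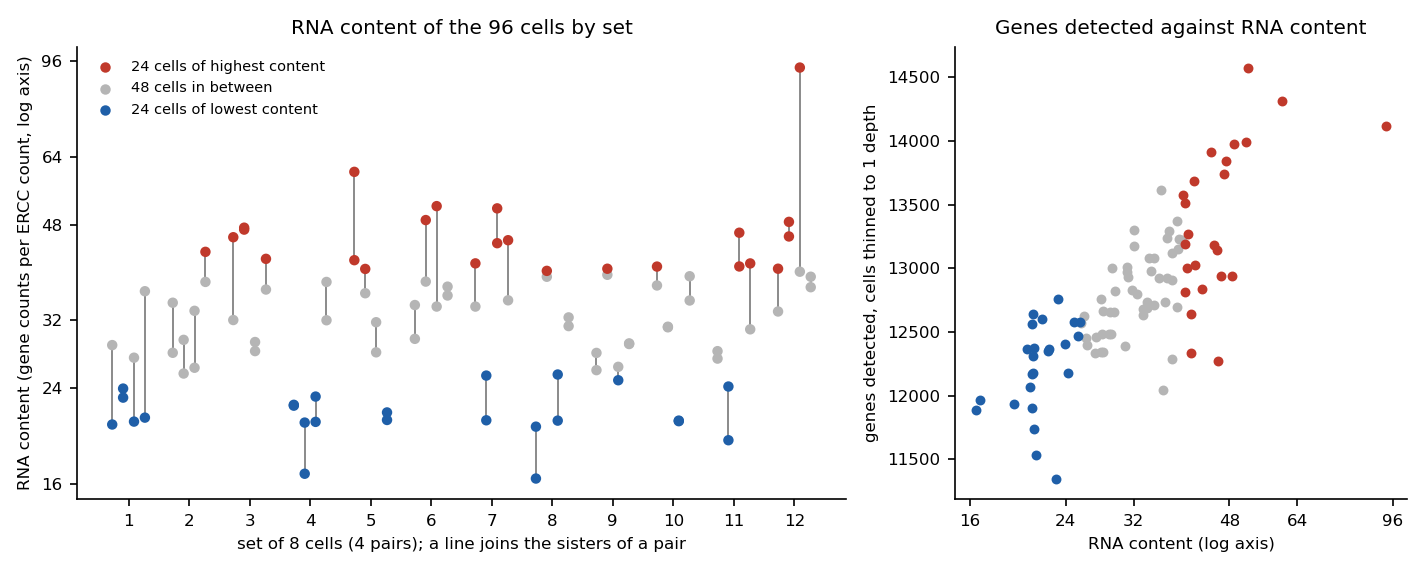
The left panel plots the RNA content of each of the 96 cells (gene reads per ERCC read, log axis) by set of 8 cells, with a line between the sisters of a pair. No line joins a red point (24 cells of highest content) to a blue one (24 of lowest). The right panel plots the number of genes detected after thinning every cell to the same number of gene reads against RNA content (log axis), with medians of 13229 in the high and 12328.5 in the low cells.

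Sister cells had similar contents. In 5 pairs both daughters were among the high cells and in 10 pairs both were among the low cells, while no pair had 1 daughter in each group. In 14 pairs 1 daughter was high and the other in between, and in 4 pairs 1 was low and the other in between. The 14 sisters of high cells that were not high themselves had contents of 30.8 to 39.3 with a median of 36.2. The 4 corresponding sisters of low cells had 26.3 to 36.2. The median fold between sisters was 1.15, the largest 2.37, and 3 pairs differed by at least 1.5-fold. The intraclass correlation of log2 content over the 48 pairs was 0.72.

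The names of the deposited tables place the cells in 12 sets of 8 cells, each of 4 whole pairs, and whether a set was handled together is not stated. High cells came from 10 sets and low cells from 8, with 6 sets holding both. The 2 sets of lowest median content, sets 1 and 4, held 11 of the 24 low cells and no high cell. Of the sum of squares of log2 content, 33.5% lay between sets, 52.3% between pairs of a set and 14.2% between sisters. With the mean of its set taken off each cell, the contents of sisters still correlated at r = 0.58 over 48 pairs.

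More genes were detected in cells of high content. A gene was counted as detected from 1 read. The high cells had 12360 to 14632 detected genes with a median of 13383.5, and the low cells 11403 to 12806 with a median of 12436. After each cell was thinned at random to the gene reads of the shallowest cell, the medians were 13229 and 12328.5, and the difference between them remained. Thinned numbers of genes correlated with log2 content at r = 0.79 over 96 cells, and at r = 0.81 with the set means taken off. The difference between sisters in genes correlated with their difference in log2 content at r = 0.64 over 48 pairs. The share of reads on mitochondrial genes, a sign of cell quality, had medians of 1.81% and 2.18% and overlapped widely, from 1.12% to 2.96% in high cells and from 1.51% to 3.84% in low cells.

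Between high and low cells many transcripts differed in amount and fewer in share. The 14463 genes with 10 or more reads in at least 10% of cells were compared on 2 scales. The share of a gene was its reads per 1000000 gene reads of the cell (CPM), and its ERCC-scaled value was the share times the content of the cell over the mean content. The difference of a gene was the mean of log2(value + 1) over the high cells minus that over the low cells, and genes past 2-fold were counted. On the ERCC scale 7334 genes were at least 2-fold higher in high cells, 50.7% of those compared, and 13 genes were at least 2-fold lower, 0.0899%. The median difference was 1.01, and 13742 genes lay above 0. These counts restate the choice of cells, since an abundant gene of constant share differs by the 1.095 by which log2 content differs.

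By share, 2009 genes were at least 2-fold higher, 13.9%, and 91 were at least 2-fold lower, 0.629%, with a median difference of 0.23 and 70.8% of all genes above 0. This lean to the high side went with detection. The genes were split into 5 bins by mean share. The median difference was 0.043 in the bin of least abundant genes, 0.27, 0.55 and 0.48 in the next bins and 0.14 in the bin of most abundant genes. In the bin with the largest median, a gene reached 1 CPM in a median of 19 high cells and 14 low cells. From the least to the most abundant bin, 0.24%, 12.1%, 27.6%, 22.5% and 6.95% of genes were at least 2-fold higher. The 13.9% of all genes thus mixes bins of unlike rates. The log2 ratio of mean shares, with 1 CPM added to each mean, is moved less by cells in which a gene is absent. By this ratio the median over all genes was 0.0052 and 50.6% of genes lay above 0, with 827 genes at least 2-fold higher, 5.72%, and 564 at least 2-fold lower, 3.90%. The higher genes were thus 95.7% of those past 2-fold by the mean of logs and 59.5% by the ratio of means. On the ERCC scale the ratio of means gave 7108 genes higher, 49.1%, and 99 lower, 0.685%. Both differences are therefore given below, and the part of detection in each gene's difference was not tested.

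**Figure D2:**
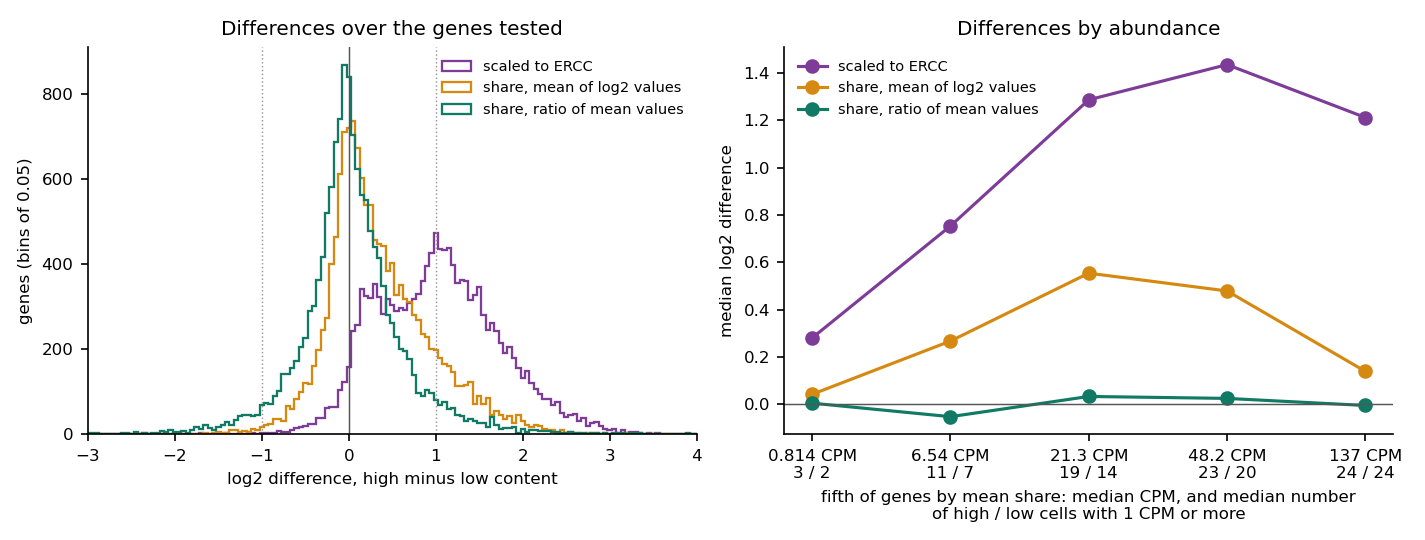
The left panel is a histogram over 14463 genes of the log2 difference between high and low cells, scaled to ERCC (purple), as share by the mean of log2 values (orange) and as share by the ratio of mean values (green), with dotted lines at 2-fold. The right panel gives the median of each in 5 bins of genes by mean share, with the median CPM of the bin and the median number of high and low cells at 1 CPM or more. The green medians stay near 0 in every bin, while the orange medians are largest in the bins of middle abundance.

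The spike-in transcripts were compared in the same way as a control, since each cell received the same mix. Among 52 ERCC transcripts that passed the same filter, measured as shares of the cell's own ERCC reads, the median difference was 0.028. Of the 52, 7 were at least 2-fold higher, a fraction near the 13.9% of genes by share. At least 2-fold lower were 3 of the 52, a larger fraction than the 0.629% of genes. The spike-in transcripts thus also passed 2-fold, in both directions. Their quartiles were -0.15 and 0.19. Gene length went with the lean by share: among genes of at least 10 CPM, the median difference was 0.11 in the bin of shortest exon length and 0.37 to 0.47 in the others, and the medians ran from -0.079 to 0.076 by the ratio of means.

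The genes with the largest positive differences by share were Gm4610, Ccnf, Ckb, Sbsn, Chid1, Cryab, Plet1, Gpnmb, Lamb1, Atg9b, Slc16a3 and Adam8. Ccnf, at chr17:24222198-24251484 on GRCm38, encodes cyclin F, which directs proteins to destruction in G2. Its share was 0.14 to 233 CPM in high cells with a median of 76.2, and 0 to 197 CPM in low cells with a median of 0.38997. It reached 1 CPM in 20 of 24 high cells (83.3%, exact 95% interval 62.6% to 95.3%) and in 7 of 24 low cells (29.2%, 12.6% to 51.1%). The log2 difference was 3.49 and the ratio of means 2.00. The interval over cells takes them as independent draws, which sisters are not. Intervals of reads cover counting error only, as for the 79956 reads summed over the high cells (Poisson interval 79403 to 80512) and the 18235 over the low cells (17971 to 18502).

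Sbsn, Cryab and Plet1 are known from epithelia and their stress. Sbsn, suprabasin of stratified epithelia, had 0 to 478 CPM in high cells with a median of 35.2, and 0 to 91.1 in low cells with a median of 0.319. Its difference was 3.17, with a ratio of means of 3.34. Cryab, a small heat shock protein, had a median of 40.0 CPM against 3.603, with a highest value of 721 against 116.8. Plet1, a surface glycoprotein of epithelial progenitors, had medians of 57.97 and 2.31 CPM and highest values of 788 and 163. The ranges of the groups overlapped for each of these genes, and between 77.3% and 79.9% of the 576 combinations of a high and a low cell had the higher share in the high cell.

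Slc16a3, which exports lactate, had medians of 116.7 and 10.5 CPM in high and low cells. Ckb, a creatine kinase, had 12.2 to 369 CPM in high cells and 0 to 172 in low cells, and reached 1 CPM in 24 and 11 cells. Lamb1, a laminin chain of basement membranes, had medians of 50.01 and 0.335 CPM, and Adam8, a metalloprotease, 21.2 and 0.221. Ckb, Lamb1 and Adam8 were thus below 1 CPM in most low cells. Gpnmb, a lysosomal membrane glycoprotein, is carried by few cells: 1 of the 24 high cells held 83.3% of its summed share, and its medians were 8.55 and 0.246 CPM. Chid1 had medians of 39.8 and 0.401 CPM and Atg9b, of the autophagy machinery, 47.3 and 2.16.

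Gm4610, first in the list with a difference of 3.71, is annotated on the strand opposite to Bcar3, a gene of mean share 126 CPM. The library method does not mark strand, so that reads of Gm4610 and Bcar3 cannot be told apart where they overlap. Chid1 likewise overlaps Tspan4 on the other strand.

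**Figure D3:**
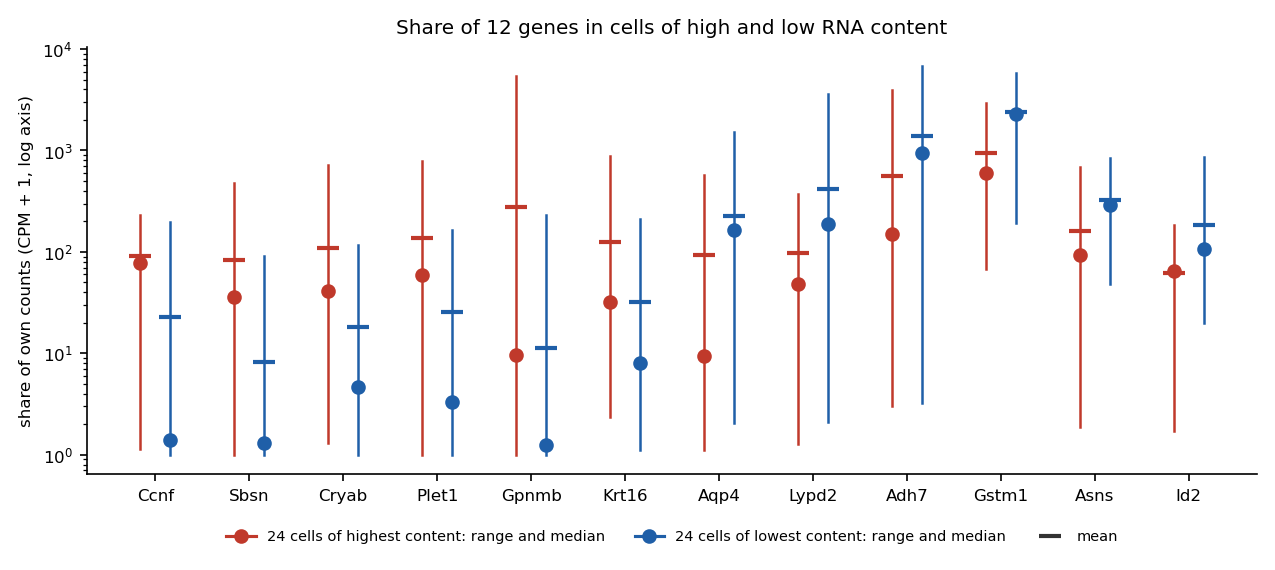
Each gene has a line from the lowest to the highest share (CPM + 1, log axis) over the 24 high cells (red) and the 24 low cells (blue), with a dot at the median and a bar at the mean. The medians of Ccnf, Sbsn, Cryab, Plet1, Gpnmb and Krt16 are higher in high cells, and those of Aqp4, Lypd2, Adh7, Gstm1, Asns and Id2 are lower, while the ranges overlap for all 12 genes.

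Most listed genes of mitosis and G2 had a larger share in high than in low cells. Of 30 listed genes, 29 had a positive difference, against 70.8% of all genes, and 17 were at least 2-fold higher, against 13.9%. The median was 1.19, against 0.23 over all genes. By the ratio of means the median was 0.82, 8 of 30 were at least 2-fold higher, against 5.72% of all genes, and none was 2-fold lower. Kif23, a kinesin of the midbody, had 0.224 to 263 CPM in high cells with a median of 62.6, and 0.394 to 224 CPM in low cells with a median of 8.06. Ttk and Aurkb, kinases of the spindle checkpoint and of chromosome segregation, had medians of 42.8 and 0.525 CPM and of 76.9 and 0.939 CPM. Cenpe, a kinetochore motor, had medians of 79.5 and 23.6.

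Kif23, Ttk, Aurkb and Cenpe were named for the largest differences among members of at least 10 CPM. That the other such members differed less follows from this choice. Cdk1, the mitotic kinase, had medians of 229 and 78.9 CPM, and its partner Ccnb1 171 and 87.8. Cdc20, an activator of the anaphase-promoting complex, had 213 and 153. Mki67, a marker of cycling cells, had medians of 429 and 322 CPM with a difference of 0.12 and a ratio of means of 0.57. Ccnb2 lay on the other side with -0.37, or -0.45 by the ratio of means. The share summed over the list was 161 to 10923 CPM in high cells with a median of 3405, and 114 to 8290 in low cells with a median of 2745. The groups overlapped over most of their range, with 12 high and 9 low cells above the median of the 96 cells. The 14 sisters of high cells that were in between had a median of 5925 CPM, above that of the high cells. The rank correlation of the sum with content was 0.23 over 96 cells and 0.16 with set means taken off.

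The promoters of these genes are known to hold a CCAAT box and the CHR, a motif with the letters TTTGAA, through which genes of G2 and mitosis are switched. They are shown for Cdc20, a member of the list, and for Ccnf, which is not in the list and is not part of its counts, as the 120 bases before the start of the gene, read from the strand of the gene, with TTTGAA and CCAAT in capitals. The sequences are those of RefSeq on GRCm38.p6, at chr17:24251410-24251529 for Ccnf and chr4:118437344-118437463 for Cdc20, both on the minus strand, and the starts are those of RefSeq, which lie within the gene spans of the deposited tables.
Ccnf: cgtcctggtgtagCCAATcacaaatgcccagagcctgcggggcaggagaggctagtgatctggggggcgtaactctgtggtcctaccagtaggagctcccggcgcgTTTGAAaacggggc
Cdc20: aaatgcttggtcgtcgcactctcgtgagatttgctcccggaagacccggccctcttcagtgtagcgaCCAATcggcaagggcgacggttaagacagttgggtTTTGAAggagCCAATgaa

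TTTGAA begins 14 bases before the start in Ccnf and 18 bases before it in Cdc20. A promoter was found for 25 of the 30 genes of the list. A gene of a list was counted when any of its promoters held the motif. The base counts each promoter once, 32851 for 27025 gene names, so that genes with several promoters have more chances of a match than the base. In the 250 bases before the start, on either strand, TTTGAA was present in 9 of the 25, 36.0%, against 16.0% of all 32851 promoters, and CCAAT in 22, 88%, against 33.8%. Over the 12354 promoters of the genes compared, the shares were 10.9% and 35.7%. CCAAT was also present in 61.5% of the 26 genes of the DNA replication list with a promoter. TTTGAA was present in 26.1% of the 23 such genes among the xenobiotic enzymes described below, a list with its median on the other side. Not all of these genes with TTTGAA passed the filter or lay on that side. The 2 motifs share no bases in the promoters shown. The genes of the list with TTTGAA had differences of -0.37 for Ccnb2 to 1.71 for Top2a, so that they did not all lie on 1 side. A match describes the letters and is not evidence of a bound site.

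Genes of DNA replication did not share the difference of the mitotic genes on both measures. Of 32 listed genes, 31 had a positive difference, against 70.8% of all genes, with a median of 0.62. At least 2-fold higher were 9, against 13.9% of all genes and up to 27.6% in a bin of abundance. The ratio of means had a median of 0.14 and 19 of 32 above 0, against 50.6% of all genes, with no gene past 2-fold. Fen1, a flap endonuclease, had a difference of 1.60 and a ratio of means of 0.47, with medians of 114 and 71.6 CPM. The share summed over the list had medians of 4088 CPM in high and 4183 CPM in low cells. Among 15 of 16 listed G1 cyclins and CDK inhibitors that passed the filter, the median difference was 0.36 and the ratio of means 0.096. Cdkn1a, the inhibitor p21, had medians of 181 and 193 CPM, but a difference of 0.79 and a ratio of means of 0.26.

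Squamous differentiation genes had the largest median of the 26 lists by the mean of logs, and mitosis and G2 by the ratio of means. Of 32 genes 21 passed the filter, so that the values cover those counted in enough cells of either group. Of these 21, 17 had a positive difference, not far from the 70.8% of all genes, and 11 were at least 2-fold higher, against 13.9%, with a median of 1.30. By the ratio of means the median was 0.59, with 9 genes at least 2-fold higher, against 5.72% of all genes. Tgm1, which crosslinks the cornified envelope, had 0 to 1784 CPM in high cells with a median of 10.2, and 0.077 to 104 CPM in low cells with a median of 0.351. Serpinb2, a serine protease inhibitor of stressed epithelia, had medians of 4.92 and 0.698 CPM and highest values of 1584 and 91.5. Dmkn, dermokine, reached 1 CPM in 13 high and 3 low cells.

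The squamous share varied widely among the cells of either group. Summed over the list it was 133 to 48921 CPM in high cells with a median of 2086, and 165 to 65810 CPM in low cells with a median of 778. The highest cell of all was thus a low cell, the one that stood apart, and without it the median of the list was again 1.30, while the other 23 low cells reached at most 13623 CPM. Sprr2a1 and Sprr2a2, near-identical small proline-rich genes among which reads may be split, held 38.0% and 40.4% of the summed share over the 96 cells. A single high cell held 51.3% of the Tgm1 share summed over high cells, and a single cell 49.2% of that of Serpinb2, beside ratios of means of 3.599 and 3.89. The rank correlation of the sum with content was 0.25 over 96 cells and 0.29 with set means taken off, both from the same libraries. Between sisters the rank correlation of the differences was -0.18 over 48 pairs, and the sum was higher in the sister of higher content in 22 of 48 pairs.

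Of 5 keratins of the wound response, 4 had a positive difference, near the 70.8% of all genes, and the median was 0.89, or 0.40 by the ratio of means. Without the low cell that stood apart the median was 0.56. Krt6a and Krt17 had medians of 4120 and 2036 CPM and of 4392 and 3486 CPM in high and low cells. Krt16 had 1.36 to 877 CPM with a median of 31.2 in high cells and 0.104 to 209 CPM with a median of 6.97 in low cells, a difference of 1.40. Krt23 lay on the other side, with medians of 38.5 and 101 CPM and a difference of -1.46, but only -0.34 by the ratio of means. The lowest shares of Krt17, Krt6a and Krt14 among low cells, 19.9, 23.5 and 17.9 CPM, were those of that 1 cell, and the other 23 low cells had at least 658, 536 and 103 CPM, against at least 1747, 914 and 781 CPM in high cells.

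The genes of lower share in high cells were fewer. Of the 91 past 2-fold, 7 were in the list of xenobiotic enzymes and 3 in that of the airway surface. Aqp4, a water channel, had 0.123 to 575 CPM in high cells with a median of 8.33, and 1.05 to 1531 CPM in low cells with a median of 162. Its difference was -2.61, or -1.28 by the ratio of means, and it reached 1 CPM in 16 of 24 high cells and 24 of 24 low cells. Adh7, an alcohol dehydrogenase that oxidizes retinol, at chr3:138217760-138233382 on GRCm38, had 2.04 to 3919 CPM with a median of 148 in high cells and 2.21 to 6743 CPM with a median of 942 in low cells. Lypd2, a Ly6-family surface protein, had medians of 47.0 and 188 CPM. The ranges overlapped, and the high cell had the higher share in 25.9% to 28.8% of combinations for these genes.

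Among genes of at least 50 CPM in the group where they were higher, Aqp4, Sftpd, Lypd2, Adh7, Ces1d and Ugt2a1 had the most negative ERCC-scaled differences, at -1.69, -1.68, -1.39, -1.22, -0.93 and -0.86. By the ratio of ERCC-scaled means, Aqp4 and Adh7 stood at -0.20 and -0.27, nearer to 0 than by the mean of logs. Sftpd, surfactant protein D, and Ugt2a1, a glucuronosyltransferase, were carried by single low cells, which held 62.4% and 90.96% of their summed share. Ugt2a1 overlaps Ugt2a2 on the same strand, and their reads may be split.

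Of 30 listed xenobiotic enzymes 20 passed the filter. Of these, 7 were at least 2-fold lower, against 0.629% of all genes, and none was 2-fold higher, with a median of -0.82. By the ratio of means the median was -0.87, 8 were at least 2-fold lower, against 3.90% of all genes, and 3 of 20 lay above 0, against 50.6%. Gstm1, a glutathione transferase, had 66.7 to 2919 CPM with a median of 594 in high cells and 191 to 5833 CPM with a median of 2295 in low cells, a difference of -1.49 with a ratio of means of -1.33. It was above 1 CPM in every cell of both groups. Ces1d, a carboxylesterase, had medians of 0.642 and 62.4 CPM. Gsta3, another glutathione transferase, had the largest positive difference of the list, 0.69, with 0.030 by the ratio of means. The summed share was 4425 to 28472 CPM in high cells with a median of 12017, and 4363 to 36466 CPM in low cells with a median of 17618. It was above the median of the 96 cells in 11 high and 16 low cells.

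Of 18 airway-surface genes and aquaporins 12 passed, with a median of -0.44 (ratio of means -0.49). Of these, 3 were at least 2-fold lower, against 0.629% of all genes, and none was 2-fold higher, against 13.9%. By the ratio of means 5 of the 12 were at least 2-fold lower, against 3.90% of all genes. Krt7, a keratin of simple epithelia, lay on the other side with medians of 859 and 435 CPM. Their summed share had medians of 9594 and 12047 CPM. Over the 96 cells the sums of the xenobiotic and of the airway list had rank correlations with content of -0.21 and -0.29. Other genes of this direction were Id2, an inhibitor of basic helix-loop-helix factors, with medians of 63.9 and 107 CPM, Slc26a2, a sulfate transporter, with 14.9 and 60.3, and Fetub, a secreted protease inhibitor, with 8.16 and 25.9. Gm20716, with 57.6 and 84.9 CPM, overlaps Adnp and Dpm1 on the same strand, and its reads are uncertain.

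**Figure D4:**
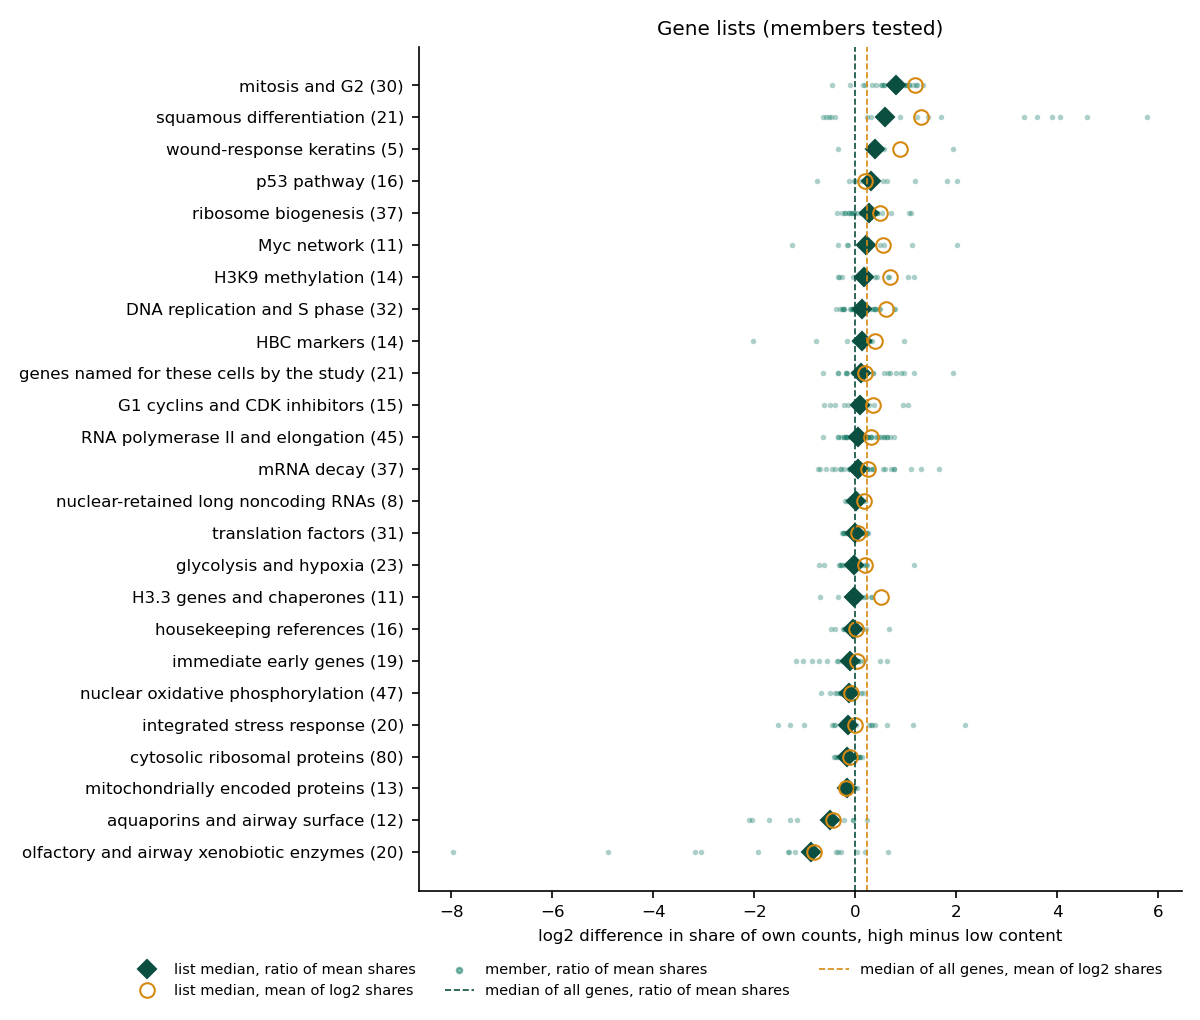
For each list of genes, with the number that passed the filter, the diamond is the median log2 ratio of mean shares between high and low cells, the open circle the median difference of mean log2 shares, and the small points are the members by the ratio of means. Mitosis and squamous lists stand highest, at 0.82 and 0.59 by the diamond, and xenobiotic enzymes lowest at -0.87, and the dashed lines are the medians of all genes, 0.0052 and 0.23.

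Of the 12 genes of lower share, Asns, asparagine synthetase, separated the groups most often. It had 0.861 to 681 CPM in high cells with a median of 91.3, and 46.9 to 835 CPM in low cells with a median of 291. The high cell had the higher share in 19.4% of combinations, and the difference was -1.57 with a ratio of means of -1.02. Asns is a target of the integrated stress response, in which the factor ATF4 acts through elements with the letters TGATGNAA. That element is shown in capitals in the 120 bases before the start of Asns and of Nupr1, a stress-induced chromatin protein of the same list, read from the strand of the gene. The sequences are those of RefSeq on GRCm38.p6, at chr6:7693210-7693329 for Asns and chr7:126625471-126625590 for Nupr1, both on the minus strand. In Nupr1 the element lies on the opposite strand, so that its reverse complement is in capitals.
Asns: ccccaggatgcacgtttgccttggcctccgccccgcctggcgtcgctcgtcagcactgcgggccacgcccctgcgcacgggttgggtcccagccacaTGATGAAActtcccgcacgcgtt
Nupr1: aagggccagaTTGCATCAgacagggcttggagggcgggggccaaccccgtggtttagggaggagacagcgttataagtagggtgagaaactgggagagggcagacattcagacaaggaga

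A promoter was found for 19 of the 20 genes of the list. In the 250 bases before the start, on either strand, TGATGNAA was present in 5 of the 19, 26.3%, against 3.45% of all promoters. As above, a gene was counted when any of its promoters held the element, and the base counts single promoters. The 5 genes did not lie on 1 side: Asns, Nupr1 and Vldlr had differences of -1.57, -0.41 and -0.41, and Chac1 and Slc7a11 of 0.39 and 0.11. The 20 genes of the list had a median difference of -0.011, or -0.15 by the ratio of means. By the mean of logs 1 was at least 2-fold higher, against 13.9% of all genes, and 1 at least 2-fold lower, against 0.629%. By the ratio of means 2 were at least 2-fold higher, against 5.72%, and 3 lower, against 3.90%. Sesn2, a sestrin, was the gene higher by the mean of logs, with medians of 65.8 and 28.3 CPM. Nupr1 had medians of 49.1 and 48.2 CPM, and its ratio of means was -1.53, with 61.9% of the share summed over low cells in 1 cell. The share summed over the list was 1702 to 8358 CPM in high cells with a median of 3173, and 2566 to 10083 CPM in low cells with a median of 4709. It exceeded the median of the 96 cells in 8 high and 19 low cells.

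**Figure D5:**
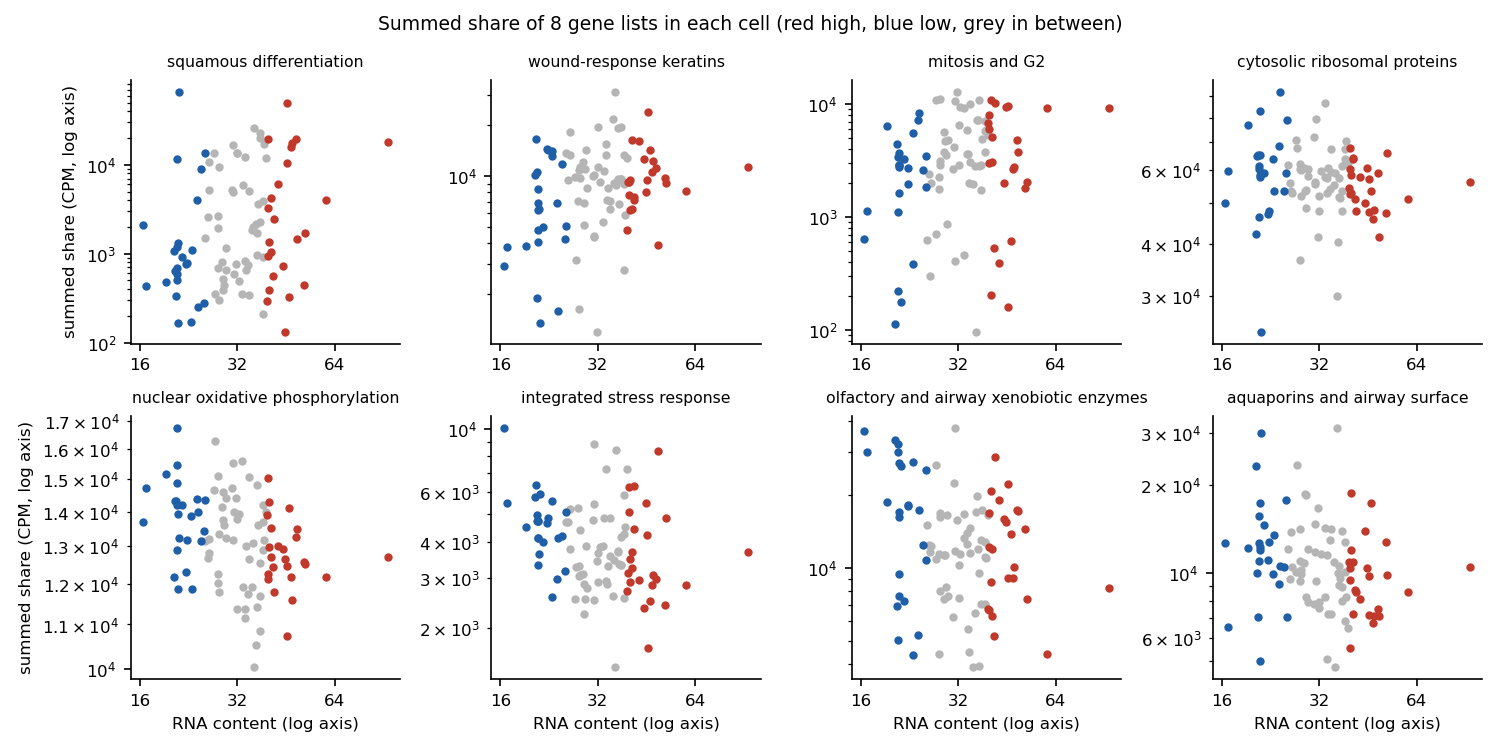
The share summed over the genes of a list (CPM, log axis) is plotted against RNA content (log axis) for each of the 96 cells, with high cells in red, low cells in blue and those in between in grey. Oxidative phosphorylation spans a narrow range, 10730 to 16758 CPM over the high and low cells, and squamous differentiation a wide one, 133 to 65810 CPM.

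Ribosomal protein genes, the list with the largest summed share, scaled almost with content, with shares that leaned lower in high cells. The 80 cytosolic ribosomal protein genes had a median difference by share of -0.11, from -0.38 to 0.22, and none was past 2-fold. Of the 80, 16 lay above 0, against 70.8% of all genes, and 9 by the ratio of means, against 50.6%. Their ERCC-scaled median was 0.98, against 1.095 for the content itself. The summed share was 41638 to 67552 CPM in high cells with a median of 53862, and 24725 to 92103 CPM in low cells with a median of 59383. Rps18 had 425 to 1131 CPM with a median of 872 in high cells and 440 to 1618 CPM with a median of 1125 in low cells. Rps6, a ribosomal protein that the study names for these cells, had medians of 817 and 845 CPM.

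Respiratory genes behaved in the same way. The 47 nuclear genes of oxidative phosphorylation had a median difference of -0.083, with 14 above 0, against 70.8% of all genes, and none past 2-fold. By the ratio of means 5 of the 47 lay above 0, against 50.6%. Ndufv2, a subunit of complex I, differed most, with 47.3 to 163 CPM in high cells and 70.4 to 257 CPM in low cells, a difference of -0.69. The summed share of the list had medians of 12676 and 13960 CPM, and it was above the median of the 96 cells in 7 high and 17 low cells. Its rank correlation with content, -0.37 over 96 cells and -0.44 with set means taken off, was the largest in size of the 26 lists. The 13 mitochondrially encoded protein genes had a median of -0.17, and mt-Nd1 had medians of 2646 and 3322 CPM.

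Housekeeping genes and translation factors had medians near 0 on the share scale, at 0.016 for 16 genes and 0.059 for 31, with none past 2-fold. Eef1a1, which brings aminoacyl-tRNA to the ribosome, had medians of 4722 and 5721 CPM. B2m, the light chain of class I major histocompatibility molecules, was an exception in the housekeeping list with 141 and 81.9 CPM and a difference of 0.66.

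Of 37 genes that make ribosomes, 34 had a positive difference, against 70.8% of all genes, with a median of 0.49, or 0.27 by the ratio of means. At least 2-fold higher were 9, against 13.9% of all genes and up to 27.6% in a bin of abundance. By the ratio of means 2 were, a share near the 5.72% of all genes. Polr1a, the largest subunit of RNA polymerase I, had 0.38 to 216 CPM with a median of 85.3 in high cells and 0.20 to 152 CPM with a median of 34.3 in low cells. Wdr75, of the small-subunit processome, had medians of 83.1 and 26.3 CPM, and the high cell had the higher share in 78.5% of combinations. Heatr1, of the same complex, had 98.8 and 43.8 CPM. The summed share nevertheless overlapped widely, with medians of 6503 and 5471 CPM.

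The machinery of mRNA synthesis and decay differed little by the ratio of means. For 45 genes of RNA polymerase II and elongation the medians were 0.32 by the mean of logs and 0.064 by the ratio of means, with none past 2-fold by the latter. Polr2h, a subunit shared by the RNA polymerases, had 30.8 to 170 CPM in high cells and 0.23 to 141 CPM in low cells, with medians of 72.2 and 37.0. For 37 genes of mRNA decay they were 0.25 and 0.053. Dcp1a, a decapping activator, had a difference of 2.22 with medians of 20.5 and 0.142 CPM. For 11 of 12 Myc network genes that passed they were 0.55 and 0.22, while Myc itself had medians of 118 and 175 CPM. For 8 of 10 nuclear-retained long noncoding RNAs they were 0.18 and 0.017.

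The histone H3.3 genes, which the study names, scaled with content. H3f3a and H3f3b, which encode the histone variant H3.3, had medians of 382 and 398 CPM and of 938 and 945 CPM in high and low cells, with differences of 0.0087 and -0.039. Both genes have near-identical processed copies, among which reads may be split. The list of 11 H3.3 genes and chaperones had a median of 0.51, or -0.023 by the ratio of means. For 14 genes of H3K9 methylation the medians were 0.69 and 0.18. Suv39h1, an H3K9 methyltransferase, had 0.280 to 189 CPM with a median of 56.5 in high cells and 0.121 to 107 CPM with a median of 15.2 in low cells. Kdm1a, a demethylase, had medians of 63.3 and 34.3 CPM, and Setdb2 reached 1 CPM in 18 high and 5 low cells.

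HBC identity genes were counted in both groups. For 14 HBC markers the median difference was 0.39, or 0.13 by the ratio of means, and 0.10 without the low cell that stood apart. Krt5 had 1029 to 4770 CPM in high cells and 175 to 5982 in low cells, with medians of 3017 and 2714. Trp63 had 1.14 to 567 CPM in high cells and 36.4 to 578 in low cells, with medians of 192 and 207. The high cell had the higher share of Trp63 in 45.5% of combinations. Its difference was -0.37, or -0.15 by the ratio of means. It lay below 0 in all 20 alternatives, most of which use largely the same cells and are not independent. In the contrasts within sets and within pairs described below, Trp63 stood at -0.88 and -0.42. Icam1, an adhesion molecule used to sort HBCs, had medians of 46.1 and 11.1 CPM. Over a list of 21 genes drawn up from the study, the medians were 0.20 and 0.12. That list leaves out Ascl3 and Il33, which the study names, and holds Kdm1a, which its text does not name. Among markers of other cells, 2 of 30 passed the filter, and Cd68, of macrophages and lysosomes, was at 1 CPM in 12 high and 9 low cells.

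The contrast was then taken within sets and within pairs. With the 2 highest and the 2 lowest cells of each set, 24 against 24 cells whose mean contents differed 1.83-fold, 1459 genes were at least 2-fold higher and 161 lower by share, 90.1% of them higher, and the median over genes was 0.15. The 12 genes named as highest were all past 2-fold again, and 9 of the 12 named as lowest. These cells overlap with the 48 cells above and are not independent of them. The list medians within sets were 1.33 for squamous differentiation, 0.82 for mitosis and G2, 0.52 for wound-response keratins, 0.26 for ribosome biogenesis, -0.71 for xenobiotic enzymes and -0.33 for the airway list. For DNA replication the median was -0.18, on the other side of 0.

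Between sisters these differences were small or absent. The sister of higher content had a 1.18-fold higher content on average over the 48 pairs. By share, 105 genes were at least 2-fold higher in that sister and 30 lower, 77.8% of them higher, and the median over genes was 0.044. The list medians were 0.31 for mitosis and G2, 0.19 for squamous differentiation and 0.17 for wound-response keratins. They were 0.014 for xenobiotic enzymes and 0.047 for the airway list. Of the 12 genes named as highest, 9 lay on the same side and none was past 2-fold, while Ccnf, Cryab and Plet1 lay on the other side at -0.69, -0.35 and -0.47. Of the 12 named as lowest, 5 lay on the same side. The difference in content between sisters was also small, and whether it sufficed to show a difference in share was not tested.

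The cells in between gave a further contrast that shares no cell with the groups. The 24 cells ranked 25 to 48 by content were set against the 24 ranked 49 to 72. By share the mitosis list had a median of 0.62, the squamous list 0.46, the wound-response keratins 0.60, the xenobiotic enzymes -0.35 and the airway list -0.37, each on the side it had in the high and low cells. Ribosome biogenesis stood at -0.0026 and DNA replication at -0.45. All 12 genes named as highest were higher in the cells of higher content here too, 8 of them past 2-fold, and 8 of the 12 named as lowest were lower, 4 of them past 2-fold. Among these 48 cells are 14 sisters of high cells and 4 sisters of low cells, so that the contrasts are not independent. Asns lay on the other side here, at 0.47, and the list of the integrated stress response had a median of 0.42.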

How the data were processed

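The authors trimmed reads with Trimmomatic 0.39, aligned them with STAR 2.7.11a to GRCm38 with ERCC sequences, and deposited read counts per gene and cell from StringTie 2.2.1, not normalized. They also deposited TPM per gene for each cell, scaled for length and library, which were used only as an alternative and for coordinates. All else was computed here from the counts of 96 cells (29454150 to 44849003 gene reads) with Python 3.11.15, numpy 2.4.6, scipy 1.17.1, pandas 2.3.3 and matplotlib 3.10.9. Differences used log2(CPM + 1) and genes with 10 or more counts in 10% of cells, and were checked on simulated counts. The cells and gene lists were chosen with earlier results of these data known. Genes named were the 12 largest differences by share in each direction and the 6 lowest on the ERCC scale, at 50 CPM or more. Also named were up to 4 genes a list at 10 CPM or more, and those of the list drawn up from the study. A few further list members (Ccnb2, Top2a, Gsta3, Vldlr, Chac1, Slc7a11, Sprr2a1, Sprr2a2) were named after their values were seen. Motifs were chosen after the differences were known. With no mouse or culture in the labels there is 1 sample, and no test was made. In all 20 alternatives were tried, 3 of them added after seeing the data.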

Additional observations from a re-analysis of the deposited data

How the results depend on the processing

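The numbers of genes past 2-fold depend on the pseudocount, on how cells without reads are averaged and on which cells are compared. With a pseudocount of 0.1, 4035 genes were higher and 244 lower by share, the median over genes was 0.43, and 60 were lower on the ERCC scale. With 10 the counts were 181 and 12 by share and 3522 and 1 on the ERCC scale. Without a filter on low counts the medians over genes were 0.0068 by share and 0.10 scaled to ERCC, and those of the squamous and other-cell lists 0.25 and 0.013. With 10 counts asked in 50% of the cells, 5 genes were lower on the ERCC scale. By the difference of medians 215 genes were lower by share and 57 on the ERCC scale. By the ratio of means 827 were higher and 564 lower by share with a median of 0.0052, and 99 were lower on the ERCC scale. With 12 and 12 cells, 3086 were higher and 321 lower by share, and 53 lower on the ERCC scale.

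Among the cells ranked 25 to 48 and 49 to 72, 640 genes were higher and 274 lower by share with a median of 0.038, and 1148 and 127 on the ERCC scale with a median of 0.25. Of the named genes past 2-fold, the following lay on the other side there by share: Sftpd 0.21, Asns 0.47, Slc26a2 0.058, Gm20716 0.33, Icam1 -0.55, Ccne1 -1.61, Fen1 -0.065, Rfc4 -0.58, Heatr1 -0.35, Ccnt1 -0.70, Cdk9 -0.20, Edc4 -0.31, Mxd1 -0.42, Max -0.86, Cabin1 -0.0085, Asf1b -0.71, Setdb2 -1.22 and Suv39h1 -0.25. Within sets 161 genes were lower by share and 36 on the ERCC scale, and Cdc45 stood at -0.27 and Mlxip at -0.038.

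No paired analysis was possible because the groups chosen by content hold no pair with 1 daughter in each. Within pairs, the sister of higher against that of lower content, 105 genes were higher and 30 lower by share with a median of 0.044, and 254 and 8 on the ERCC scale with a median of 0.20. Of the named genes past 2-fold, those on the other side were Ccnf -0.69, Cryab -0.35, Plet1 -0.47, Lypd2 0.072, Adh7 0.36, Id2 0.15, Asns 0.023, Gstm1 0.082, Krt23 0.23, Gm20716 0.22, Rfc4 -0.13, Polr1a -0.14, Rrp9 -0.62, Mlxip -0.42, Sesn2 -0.65, Pmaip1 -0.43, Tmprss11d 0.81 and Cabin1 -0.16. Without the 2 sets of lowest content, Ccne1 stood at -0.43, Cdc45 at -0.52, Rfc4 at -0.26 and Tmprss11d at 0.20. The cause of these differences was not tested. Without the low cell that stood apart, 1893 genes were higher and 90 lower by share. Over 20 alternatives, 518 values of list medians stayed within the spread between cells and 2 moved beyond it. Staying within that spread does not mean that a median kept its side of 0. The side was kept in 12 of 20 alternatives for the integrated stress response and 13 for housekeeping genes. It was kept in 16 for H3.3 genes and chaperones and 17 for DNA replication, but in all 20 for mitosis and squamous differentiation. The 67 named genes past 2-fold lay on the other side of 0 in 42 of 1340 values, all given above, and the other 59 named genes, which were under 2-fold, in 85 of 1180, among them Krt7 at -0.72 and Nupr1 at 0.81 in the cells ranked 25 to 72 and Atf3 at -0.58 within pairs.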

Other observations

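Of 16 genes of the p53 pathway, 15 had a positive difference by share, against 70.8% of all genes, with a median of 0.20, just under the 0.23 of all genes. By the ratio of means the median was 0.32. Mdm2, which marks p53 for destruction, had 22.0 to 930 CPM with a median of 91.2 in high cells and 0.308 to 306 CPM with a median of 71.3 in low cells. Pmaip1, a BH3-only protein of the apoptotic pathway, had medians of 22.2 and 0.265 CPM and reached 1 CPM in 22 high and 10 low cells. Within pairs its difference lay on the other side, at -0.43. For 23 genes of glycolysis and hypoxia the medians were 0.20 and -0.020, and for 19 of 20 immediate early genes that passed the filter 0.044 and -0.097.

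The cell of highest content, 93.4, stood apart from the next, 60.05, and its sister had 39.3, just below the high group. Without that cell, 2008 genes were at least 2-fold higher and 98 lower by share.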
